A study of Mus musculus with 25 samples.

Results

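A set of 9 genes of the complement system that the liver secretes were followed through mouse liver development: the mannose-binding lectins Mbl1 and Mbl2, the lectin-pathway protease Masp1, the terminal pathway parts C6, C8a, C8b and C9, the regulator Cfi, and C3. Members were found as the probe sets annotated to exactly 1 of the 9 symbols, and each gene was represented by its probe set with the highest mean log2 intensity over the stages. Of the 9 genes, 8 were measured in this way, out of 18194 genes on the array with such a probe set. C3 was not analysed here, because the annotation used lists no probe set under that symbol alone.

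The study profiled livers of C57/B6 mice, described as random-bred, at 14 stages on Affymetrix arrays. The 8 fetal stages run from embryonic day 11.5 (E11.5) to E18.5 in steps of 1 day, and the 6 later stages are the day of birth (Day0), days 3, 7, 14 and 21 after birth, and mature mice 18 weeks after birth (Adult). All animals were untreated, and no genotype other than the strain is given. Each stage is 1 pool of livers, with 12 animals in the E11.5 pool, 9 in each of the next pair of pools, 6 each for E14.5 and E15.5, and 3 in every pool after that. The labels call the second arrays technical repeats, and 11 stages have 2 arrays while E18.5, Day7 and Day14 have 1. Spread between animals of 1 stage was therefore not measured. In bulk liver RNA, fewer cells of a type and less RNA per cell cannot be told apart.

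Complement is a cascade of plasma proteins made largely by hepatocytes. Mannose-binding lectins recognise sugars on microbes and carry MASP proteases that start the lectin pathway, and this pathway joins the classical and alternative pathways at the cleavage of C3. The terminal parts C5b, C6, C7, C8 and C9 then assemble into the membrane attack complex, while factor I, the product of Cfi, cleaves C3b and C4b and so limits the cascade.

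All levels are log2 intensities, on which the median probe set of an array lay between 5.41 and 5.53. The arrays' mean intensities ran from 140.5 to 210.4, and repeats of a stage correlated at 0.986 to 0.996 over all genes, each on its chosen probe set. Hepatocyte markers identified the tissue: the mean of Alb, Ttr, Apoa1, Apoa2 and Rbp4 was 11.91 to 13.66 in fetal pools and 13.38 to 13.92 after birth. Blood cell markers moved in the same samples. The mean of 8 measured erythroid markers fell from 11.18 at E15.5 to 6.54 in the adult, and the mean of 10 granulocyte markers was 7.47 at E14.5, 9.6 at E15.5 and 6.58 at Day21. The mean of 9 skeletal muscle markers was 6.8 in the E18.5 pool and 5.22 to 5.59 in all others. The part of these cell types in the results was not tested.

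Most of the measured complement genes were low in the early fetal liver and high after birth, but they did not rise together. Fetal pools were lower than postnatal pools for 6 of the 8 genes and higher for 0 (limma on the 14 pool means, adjusted p below 0.05 over all genes and at least 1 log2 unit). Over all genes 5.01% were called lower and 4.5% higher in that comparison. The median difference was -1.88 log2 units for the 8 genes and -0.01 for all genes. For 0 of 8 genes did every fetal pool lie below every postnatal pool, against 2.52% of all genes. Over fetal life, 7 of 8 rose from E11.5 to E18.5, with C6 the exception, where 4.4% of all genes rose and 12% fell. The median fitted fetal change was 2.27 for the 8 genes and 0.04 for all genes, beside 1.59 ± 0.14 (SE, 8 pools) for albumin.

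**Figure D1:**
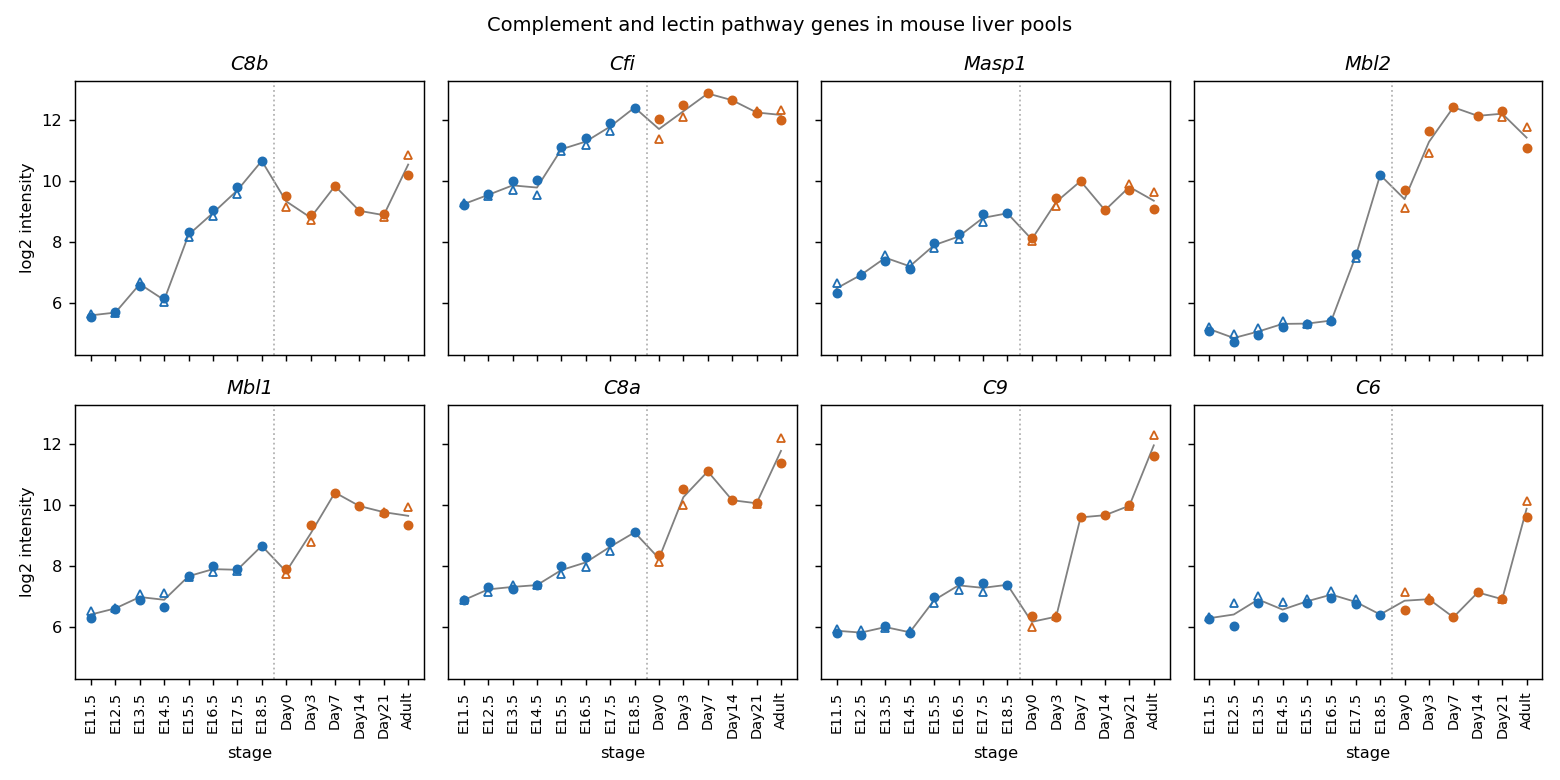
Log2 intensity (vertical axis) of the 8 measured genes at the 14 stages (horizontal axis, equal steps, not to time scale). Filled circles are replicate 1, open triangles replicate 2, lines join stage means, and the dotted line marks birth. C8b and Cfi climb before birth, Mbl2 steps up between E16.5 and E18.5, C9 between Day3 and Day7, and C6 only at the adult stage.

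Mbl2 had the widest range of intensity readings of the 8 genes. Its product is a circulating lectin of the collectin family. It read 5.09 and 5.22 at E11.5, 4.73 and 5.01 at E12.5, 4.98 and 5.19 at E13.5, and 5.23 and 5.42 at E14.5. It was still at 5.33 and 5.34 at E15.5 and at 5.42 and 5.46 at E16.5. Through E16.5 it therefore lay within or under the range of the array medians. It then read 7.61 and 7.48 at E17.5, 10.19 on the single E18.5 array, 9.7 and 9.1 at Day0 and 11.64 and 10.91 at Day3. The highest value was 12.4 at Day7, followed by 12.12 at Day14, 12.29 and 12.09 at Day21, and 11.07 and 11.75 in the adult. From the lowest to the highest stage mean this is 7.53 log2 units as read; no fold is given, since the low end was not shown to be above background. Every postnatal array was above every fetal array up to E17.5, and the E18.5 array lay between the Day0 and Day3 levels.

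The fetal rise of Mbl2 fell in 2 steps. It rose by 2.1 ± 0.24 (SE) from E16.5 to E17.5 (adjusted p = 0.000244), the 1 call among the 8 genes, where 0.709% of all genes rose. It rose by a further 2.64 ± 0.29 to E18.5 (adjusted p = 3.37e-05), where 2.32% of all genes rose. C8b (0.96 ± 0.21, adjusted p = 0.0053) and Mbl1 (0.78 ± 0.24, adjusted p = 0.031) missed only the minimum of 1 log2 unit in that step. These step tests use the spread between technical repeats only. The slope across the 8 fetal pools was 4.14 ± 1.16 (adjusted p = 0.0308), and it missed the threshold when E12.5, E13.5, E14.5, E17.5 or E18.5 was left out. Without the E18.5 pool the slope was 2.14. Fetal pools were lower than postnatal pools by -5.35 ± 0.8 (adjusted p = 0.000883).

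Mbl1, the second mannose-binding lectin of the mouse, was called above E11.5 from E15.5 on, before Mbl2, and rose more evenly; the midpoints of the 2 rises overlapped, and relative to the hepatocyte markers it was called only from Day3. Its stage means were 6.42 at E11.5, 6.62 at E12.5, 6.99 at E13.5 and 6.9 at E14.5. They were 7.67 at E15.5, 7.9 at E16.5, 7.88 at E17.5 and 8.66 at E18.5. After 7.82 at Day0 the gene read 9.06 at Day3, 10.4 at Day7, 9.96 at Day14, 9.76 at Day21 and 9.64 in the adult. The E16.5, E17.5 and E18.5 pools lay above Day0 and below every later pool. The fetal change was 2.12 ± 0.21 (adjusted p = 0.00108), and fetal pools were lower by -2.06 ± 0.42 (adjusted p = 0.00484). Both lectin genes had their highest stage mean at Day7, as did Masp1 and Cfi. The next step, to Day14, was called for none of them, with -0.44 for Mbl1, -0.28 for Mbl2, -0.22 for Cfi and -0.96 for Masp1. Day7 has 1 array, with a mean intensity of 205.4, beside 172.8 and 169.9 for the Day21 arrays.

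The promoters of the lectin pair are shown because both genes had their highest stage mean at Day7 while Mbl1 passed its onset before Mbl2. They are the 250 bases before the RefSeq start on GRCm38.p6 as the promoter table gives it, at chr14:41151206-41151455 (plus strand) for Mbl1 and chr19:30232678-30232927 (plus strand) for Mbl2. Capitals mark the longest run of bases that they share, which was noticed in the printed sequences.
Mbl1: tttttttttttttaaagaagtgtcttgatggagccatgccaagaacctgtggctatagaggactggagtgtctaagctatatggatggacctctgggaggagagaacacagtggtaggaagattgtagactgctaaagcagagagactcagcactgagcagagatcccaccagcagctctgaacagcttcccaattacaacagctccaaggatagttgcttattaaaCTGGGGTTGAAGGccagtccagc
Mbl2: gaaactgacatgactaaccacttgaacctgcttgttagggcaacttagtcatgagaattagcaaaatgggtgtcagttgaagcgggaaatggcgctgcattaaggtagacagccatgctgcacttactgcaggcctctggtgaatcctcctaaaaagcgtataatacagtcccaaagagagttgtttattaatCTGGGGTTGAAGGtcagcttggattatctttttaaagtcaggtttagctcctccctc
The run is CTGGGGTTGAAGG, 13 bases long, and lies 23 to 11 bases before the start of Mbl1 and 57 to 45 before that of Mbl2. For Mbl2 the start in the promoter table lies 22 bases inside the gene as RefSeq annotates it, so the last 22 bases shown are within the gene. The run occurs in 3 of 32851 RefSeq promoters of this length (0.00913%), those of Mbl1, Mbl2 and Slc25a53. Since it was picked from Mbl1 and Mbl2, their matches were fixed in advance. The other 20 pairs among the 7 members with a promoter sequence share runs of 7 to 13 bases, and the other run of 13, in C9 and Mbl1, is a stretch of T.

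Masp1 encodes a protease that associates with mannose-binding lectins. On its probe set with the highest mean, 1419677_at, the stage means were 6.49 at E11.5, 6.93 at E12.5, 7.49 at E13.5 and 7.21 at E14.5. They were 7.9 at E15.5, 8.18 at E16.5, 8.79 at E17.5 and 8.94 at E18.5. From birth they read 8.09 at Day0, 9.31 at Day3, 9.99 at Day7, 9.04 at Day14, 9.8 at Day21 and 9.35 in the adult. The 4 youngest pools were the lowest, and the Day0 pool lay below the E16.5 to E18.5 pools. The fetal change was 2.43 ± 0.2 (adjusted p = 0.00102), and fetal pools were lower by -1.52 ± 0.4 (adjusted p = 0.0171).

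The 5 probe sets of Masp1 disagreed, so its values hold for 1419677_at only. Set 1425985_s_at read 7.72 at E11.5, 7.73 at E18.5 and 8.81 at Day7, and set 1438602_s_at read 7.14, 7.15 and 8.1. Set 1438603_x_at read 6.22, 6.87 and 7.05, and set 1455346_at stayed between 4.47 and 4.85. With the mean over the 5 sets the fetal change was 0.59 and the fetal minus postnatal difference -0.73, neither reaching 1 log2 unit. Which transcripts each set reports was not analysed here.

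**Figure D2:**
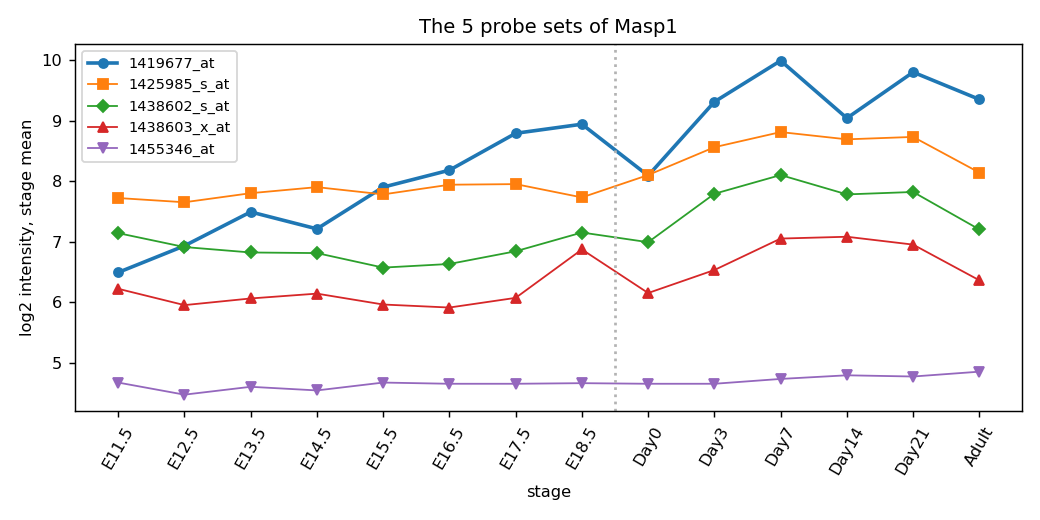
Stage mean log2 intensity (vertical axis) of the 5 probe sets annotated to Masp1 at the 14 stages (horizontal axis); the dotted line marks birth. Set 1419677_at rises from 6.49 to 8.94 before birth, and the other 4 sets show no such climb.

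Cfi, which encodes the serine protease factor I, was the highest of the 8 genes on its own probe set at E11.5, with 9.22 and 9.27. Levels of different probe sets are not comparable, so the course is what follows. Its stage means were 9.54, 9.85 and 9.78 in the next 3 pools, and 11.03 at E15.5. They continued through 11.28 at E16.5 and 11.77 at E17.5 to 12.39 at E18.5. After birth they stayed in a band from 11.69 at Day0 to 12.85 at Day7, with 12.15 in the adult. The 6 youngest pools were below every postnatal pool, and E17.5 and E18.5 overlapped them. The fetal change was 3.23 ± 0.28 (adjusted p = 0.00102), or 9.36-fold, and fetal pools were lower by -1.69 ± 0.47 (adjusted p = 0.0214).

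C8b, the beta chain of complement C8, had the largest fitted fetal change of the 8 genes. Taken as E18.5 minus E11.5, its rise of 5.04 was level with that of Mbl2, 5.03. Its arrays read 5.56 and 5.66 at E11.5, 5.72 and 5.67 at E12.5, 6.56 and 6.7 at E13.5, and 6.17 and 6.04 at E14.5. They then read 8.32 and 8.16 at E15.5, 9.06 and 8.85 at E16.5, 9.81 and 9.57 at E17.5, and 10.65 at E18.5. After birth the values were 9.52 and 9.13 at Day0, 8.89 and 8.71 at Day3, 9.83 at Day7, 9.02 at Day14, 8.93 and 8.82 at Day21, and 10.2 and 10.85 in the adult. The E18.5 pool was the highest stage mean of all 14. The fitted fetal change was 5.36 ± 0.54 (adjusted p = 0.00113). No fold is given, since the E11.5 and E12.5 readings lay just above the range of the array medians. The fetal minus postnatal difference of -1.7 ± 0.79 was not called (adjusted p = 0.144), and without the E18.5 pool it was -2.12 and called.

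C8a, the alpha chain of the same protein, rose later than C8b. Its stage means were 6.89 at E11.5, 7.24 at E12.5, 7.32 at E13.5 and 7.38 at E14.5. They were 7.87 at E15.5, 8.12 at E16.5, 8.63 at E17.5 and 9.1 at E18.5. After 8.25 at Day0 the gene read 10.25 at Day3, 11.09 at Day7, 10.15 at Day14, 10.05 at Day21 and 11.76 in the adult. Every pool from Day3 on was above every earlier pool. The fetal change of 2.11 ± 0.19 (adjusted p = 0.00102) compares with 5.36 for C8b. In the RefSeq gene order C8b and C8a are neighbours on chromosome 4 with 0 genes between them, on opposite strands. Over the 14 pools their levels correlated at r = 0.76, a description only, since the pools are ordered in time.

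C9, the pore-forming part of the membrane attack complex, rose in 3 separate intervals. It read 5.81 and 5.96 at E11.5, 5.75 and 5.91 at E12.5, 6.03 and 5.98 at E13.5, and 5.8 and 5.89 at E14.5. A fetal plateau followed, with 6.98 and 6.8 at E15.5, 7.51 and 7.22 at E16.5, 7.44 and 7.14 at E17.5, and 7.39 at E18.5. At Day0 it read 6.37 and 6, and at Day3 6.33 and 6.37. These values lay below every pool from E15.5 to E18.5. It then read 9.59 at Day7, 9.66 at Day14, 9.99 and 9.95 at Day21, and 11.6 and 12.29 in the adult. The fetal change was 1.91 ± 0.32 (adjusted p = 0.00397). Fetal pools were lower by -2.39 ± 0.79 (adjusted p = 0.0471), a call lost when any 1 of 11 pools was left out, with values from -2.5 to -1.79.

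C6, which joins C5b and C7 in the growing complex, was the only one of the 8 genes without a fetal rise. Its stage means ran from 6.3 at E11.5 to 7.07 at E16.5 in fetal pools, with a median of 6.7. From Day0 to Day21 they read 6.87, 6.92, 6.33, 7.14 and 6.92, within the spread of the fetal pools except for Day14. Both adult arrays stood apart, at 9.61 and 10.13. The fetal change was 0.3 ± 0.27 (adjusted p = 0.421), and the fetal minus postnatal difference was -0.67 ± 0.43 (adjusted p = 0.294).

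Promoters of 2 terminal pathway genes with different courses are shown with matches to core motifs of liver transcription factors; genes and motifs were chosen after their courses were seen. Each is the 250 bases before the RefSeq start on GRCm38.p6, plus strand, at chr4:104766067-104766316 for C8b and chr15:6445096-6445345 for C9. Capitals mark the matches.
C8b: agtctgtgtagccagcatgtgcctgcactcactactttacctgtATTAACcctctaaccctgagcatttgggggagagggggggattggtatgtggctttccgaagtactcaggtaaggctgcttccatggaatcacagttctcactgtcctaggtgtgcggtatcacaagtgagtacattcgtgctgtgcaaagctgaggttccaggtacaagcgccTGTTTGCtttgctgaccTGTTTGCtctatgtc
C9: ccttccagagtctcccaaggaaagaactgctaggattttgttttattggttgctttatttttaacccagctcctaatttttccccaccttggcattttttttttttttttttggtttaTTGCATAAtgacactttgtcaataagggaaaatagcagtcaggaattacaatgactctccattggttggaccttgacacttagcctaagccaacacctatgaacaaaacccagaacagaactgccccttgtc
The search took in the FOXA core TGTTTNC, the C/EBP core TTGCNNAA, the HNF4 core CAAAGNNCA and GTTAAT, a part of the site that HNF1 binds, each of them on both strands. The TATA box was searched as TATAAA on the sense strand. C8b holds TGTTTGC at 32 to 26 and at 15 to 9 bases before the start and ATTAAC at 206 to 201. C9 holds TTGCATAA at 132 to 125. Such matches are common: 17.8% of the 32851 promoters hold TGTTTNC, 9.56% TTGCNNAA, 7.59% TATAAA, 6.43% GTTAAT and 5.49% CAAAGNNCA. The windows of Mbl1 and Mbl2 hold none of the 5. For C6 and C8a the table's start lies 143 and 89 bases inside the annotated gene, and their windows are not shown.

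The order of onset was read in 2 ways. Onset is the first stage called higher than E11.5 with every later fetal stage called higher too, in a fit to the 25 arrays whose error is technical and whose contrasts all share E11.5. By this measure C8b, Cfi, Masp1, Mbl1 and C9 began at E15.5, C8a at E16.5, Mbl2 at E17.5 and C6 in the adult. The order of C9 and C8a is not firm: at E15.5 they were 1.01 and 0.98 above E11.5, on either side of the minimum. C8a moved to E15.5 under quantile normalisation and at equal housekeeping level. C9 moved to E16.5 under quantile normalisation and with arrays centred on their median. On the mean of its probe sets Masp1 began at Day7, and at equal housekeeping level at E13.5. With a minimum of 2 log2 units, C8b stayed at E15.5 and Mbl2 at E17.5, while Cfi began at E16.5, Masp1 at E17.5, C8a and Mbl1 at E18.5 and C9 at Day7. By E18.5, 7 of 8 genes had begun, against 6.56% of all genes. C8b was already 1.02 above E11.5 at E13.5 (adjusted p = 0.00037) but only 0.5 above it at E14.5. The onset of C9 did not last through birth, since its Day0 mean was 0.3 ± 0.18 above E11.5 (adjusted p = 0.225).

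The midpoint of the rise is the interpolated stage position, counted from 1 at E11.5 to 14 at the adult, where a gene first passes the middle between its lowest and highest stage mean. It came first for C8b at 4.95 and Cfi at 5.06, followed by Masp1 at 6.11, Mbl2 at 7.41 and Mbl1 at 7.69. C8a followed at 9.54, C9 at 10.78 and C6 at 13.39. The 2 sets of repeats gave midpoints with SDs of 0.05 to 0.5. C8b and Cfi lay closer together than the SD of 0.37 between repeats of Cfi, and Mbl2 and Mbl1 overlapped when pools were left out in turn (7.34 to 8.17 and 7.35 to 9.48). The range of C8a, 7.77 to 9.76, overlapped both of these, and it came earlier without the Day0 or the adult pool. Leaving out pools kept C9 between 10.48 and 11.53 and C8b between 4.86 and 5.42. Leaving out the adult pool moved C6 to 2.61, so its position rests on that pool.

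**Figure D3:**
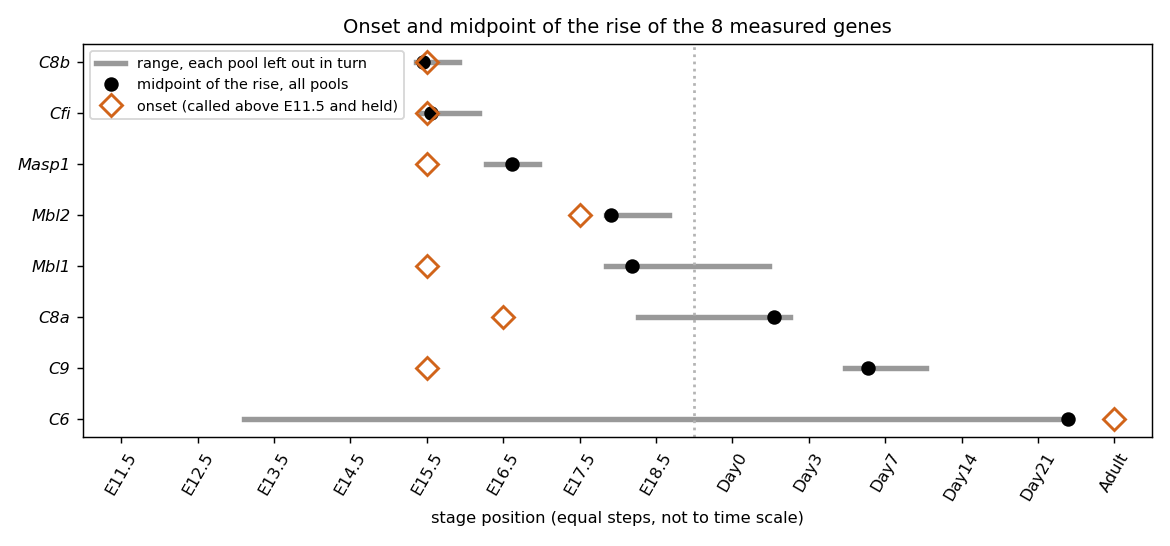
Stage position (horizontal axis, equal steps) of the onset (open diamonds) and of the midpoint of the rise (black points) for the 8 genes; grey bars are the range of midpoints with each pool left out in turn, and the dotted line marks birth. C8b and Cfi come first at 4.95 and 5.06, C9 and C6 last at 10.78 and 13.39.

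In the step from E14.5 to E15.5, 3 of 8 genes rose, against 1.28% of all genes. C8b rose by 2.13 ± 0.17 (adjusted p = 1.35e-06), Cfi by 1.25 ± 0.21 (adjusted p = 0.000934) and C9 by 1.05 ± 0.18 (adjusted p = 0.00139). The call for C9 was lost without the first E15.5 array, at 0.96. All 8 genes had values above 0 in this step. Beside it, the mean of the hepatocyte markers went from 12.07 to 12.98, that of the granulocyte markers from 7.47 to 9.6 and that of the macrophage markers from 6.71 to 7.6. Relative to the hepatocyte markers C8b was still called in this step, while Cfi (0.35) and C9 (0.15) were not.

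Across birth, from E18.5 to Day0, 7 of 8 genes had values below 0, and 2 of 8 fell, against 2.25% of all genes. C8b changed by -1.32 ± 0.21 (adjusted p = 0.00043) and C9 by -1.2 ± 0.22 (adjusted p = 0.00124). The E18.5 stage has 1 array, and the mean of the skeletal muscle markers stood apart there. Against E17.5 instead, C9 fell by 1.11 at Day0 (change -1.11 ± 0.18, adjusted p = 0.000627, 1.26% of all genes lower), while C8b changed by -0.36 ± 0.17 (adjusted p = 0.232). Mbl2 was 1.85 ± 0.24 higher at Day0 than at E17.5 (adjusted p = 6.32e-05, 2.61% of all genes higher).

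From Day0 to Day3, 4 of 8 genes rose, against 1.81% of all genes. C8a rose by 2 ± 0.22 (adjusted p = 1.21e-05), Mbl2 by 1.88 ± 0.24 (adjusted p = 6.63e-05), Mbl1 by 1.24 ± 0.2 (adjusted p = 0.000557) and Masp1 by 1.22 ± 0.17 (adjusted p = 0.000125). Masp1 was at 0.57 and not called on the mean of its probe sets. The call for Mbl1 was lost without the first Day3 array, at 0.96. C9 and C6 did not move by 1 log2 unit in this step.

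From Day3 to Day7, 4 of 8 genes rose, against 3.32% of all genes. C9 rose by 3.24 ± 0.22 (adjusted p = 2.13e-07), the largest step of any of the 8 genes. Mbl1 rose by 1.34 ± 0.24 (adjusted p = 0.00103), Mbl2 by 1.12 ± 0.29 (adjusted p = 0.0106) and C8b by 1.03 ± 0.21 (adjusted p = 0.00258). Without the second Day3 array the calls for Mbl2 (0.76) and C8b (0.95) were lost. Under quantile normalisation Mbl1 (0.88), Mbl2 (0.77) and C8b (0.62) were not called, and C8b and Mbl2 also lost their calls at equal housekeeping level (0.91 and 1) and relative to hepatocyte markers (0.7 and 0.78). Day7 has 1 array, and from Day3 to Day21, both with 2, only C9 was called, at 3.62 ± 0.18 (adjusted p = 1.15e-09, 3.15% of all genes higher).

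From Day21 to the adult, 4 of 8 genes rose, C6, C8a, C8b and C9 of the terminal pathway, against 0.61% of all genes. C6 rose by 2.95 ± 0.24 (adjusted p = 8.12e-07), C9 by 1.98 ± 0.18 (adjusted p = 3.94e-06), C8a by 1.71 ± 0.22 (adjusted p = 9.68e-05) and C8b by 1.65 ± 0.17 (adjusted p = 1.72e-05). The other 4 genes were not called, with -0.78 for Mbl2 (adjusted p = 0.0659), -0.45 for Masp1, -0.11 for Mbl1 and -0.08 for Cfi. The rise did not take in every measured terminal gene. C8g, the third chain of C8, changed by 0.05 and Hc, which encodes C5, by -0.13, and neither was called. Among the other 35 measured complement genes, limma called 0 in this step, with 10 at an unadjusted p below 0.05, as were 3406 of all 18194 genes. Over all genes 0.61% were called higher and 1.2% lower, so 0 of 35 is near the share of all genes. The hepatocyte marker mean was 13.67 at Day21 and 13.55 in the adult. The adult stage is a single pool of 3 livers with the ages between Day21 and 18 weeks not sampled.

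Counting all 13 steps, 17 rises and 2 falls were called among the 8 genes. In the 6 steps E11.5 to E12.5, E12.5 to E13.5, E13.5 to E14.5, E15.5 to E16.5, Day7 to Day14 and Day14 to Day21, limma called 0 of 8, with 1, 2, 1, 2, 4 and 1 genes at an unadjusted p below 0.05. In these steps 2.76%, 1.04%, 0.044%, 0.236%, 5.73% and 3.56% of all genes were called in either direction.

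**Figure D4:**
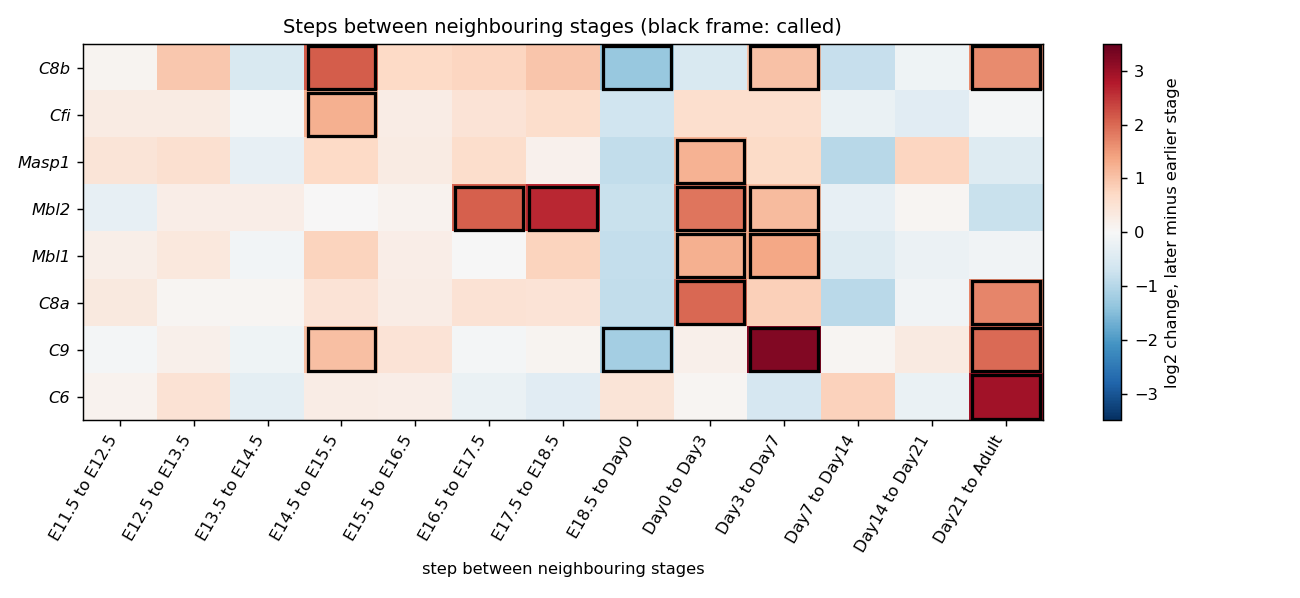
Log2 change from each stage to the next (colour scale, later minus earlier) for the 8 genes in 13 steps; black frames mark called steps. Calls gather at E14.5 to E15.5, at Day0 to Day7 and, for the terminal pathway genes C6, C8a, C8b and C9, at Day21 to the adult.

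A trend from Day0 to 18 weeks over the 6 later pools was called by limma for 0 of 8 genes, and for 0% of all genes. At an unadjusted p below 0.05 it counted 3 of the 8 genes and 2540 of all 18194, and limma with a trended, robust variance also called 0 of 8. The largest fitted changes were 6.24 ± 0.96 for C9 (adjusted p = 0.178), 2.91 ± 0.82 for C8a (adjusted p = 0.216) and 2.78 ± 1.05 for C6 (adjusted p = 0.319). Cfi had the smallest, 0.37 ± 0.49. Without the adult pool the value for C6 was 0.12, and without Day0 that for C8a was 1.71.

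Since the hepatocyte markers rose over fetal life too, the genes were also set against their mean in each array. On that scale the median of all genes shifted by -1.77 in the fetal course and by 1.03 in the fetal minus postnatal difference, and in the fetal course 93% of all genes were called lower and 1.37% higher. C8b still rose by 3.55 ± 0.36 over fetal life, Mbl2 by 2.33 ± 0.47 and Cfi by 1.42 ± 0.34. Masp1 (0.62), Mbl1 (0.31), C8a (0.3) and C9 (0.1) were not called, and C6 was called lower at -1.51 ± 0.36, close to the median shift of all genes. In the fetal minus postnatal difference 4 of 8 genes were lower (1.96% of all genes), with Masp1 (-0.48) and Cfi (-0.64) no longer called. Onset on this scale came at E15.5 for C8b, E16.5 for Cfi, E17.5 for Mbl2, Day3 for C8a, Mbl1 and Masp1, Day7 for C9 and in the adult for C6. The markers are themselves hepatocyte products, so the scale compares the genes with other products of these cells.

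**Figure D5:**
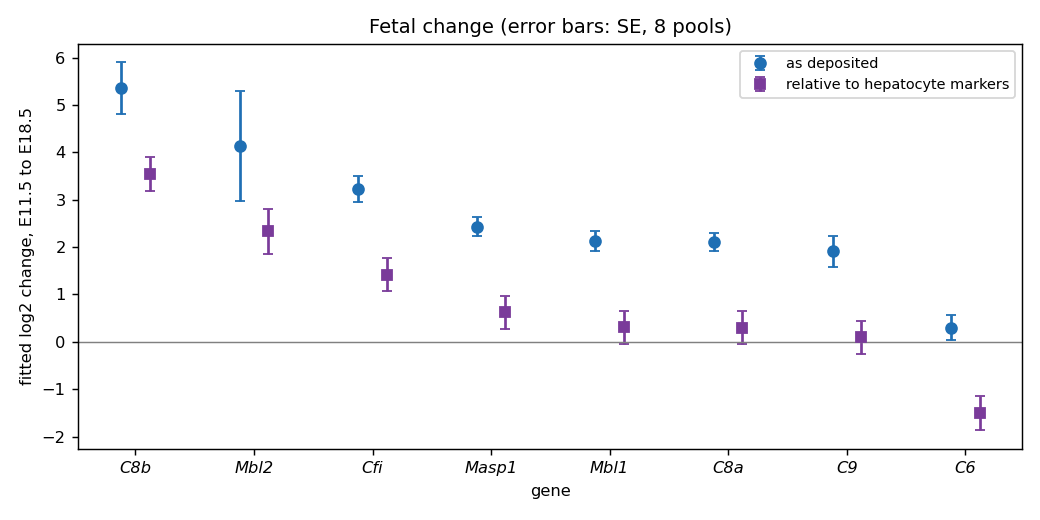
Fitted log2 change from E11.5 to E18.5 (vertical axis) for the 8 genes over the 8 fetal pools, as deposited (circles) and relative to the mean of 5 hepatocyte markers (squares); error bars are SEs. C8b, Mbl2 and Cfi lie clearly above 0 on both scales, and C6 lies below 0 on the second, at -1.51, where the median of all genes is at -1.77.

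Of 45 other complement genes listed by role, 35 were measured. In the fetal course 23 of 35 rose and 0 fell, with a median change of 1.82 beside 0.04 for all genes. The group listed as convertase parts rose in 4 of 4, with Cfb, factor B, at 3.75 ± 0.5 and C2 least (1.19 ± 0.25). The list placed Hc (4.07 ± 0.36) in this group, although it encodes C5, which gives the terminal part C5b. Classical pathway recognition genes rose in 5 of 5, such as the proteases C1s1 (3.88 ± 0.46) and C1ra (3.33 ± 0.48) and the recognition subunit C1qc (2.7 ± 0.62; 2.22 and not called without E18.5). The terminal part C8g rose by 4.28 ± 0.41. Soluble regulators rose in 7 of 8, led by the C1 inhibitor Serping1 (4.36 ± 0.86) and vitronectin, Vtn (3.79 ± 0.59), with Cfhr3 at 0.51.

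Other lectin pathway genes rose in 3 of 5, with the ficolins Fcna (2.92 ± 0.66) and Fcnb (2.62 ± 0.41), while Colec11 was at 0.45 ± 0.47. Receptors rose in 3 of 7, with the macrophage receptor Vsig4 at 2.08 ± 0.35, Itgb2 at 1.34 ± 0.39 and Itgax at 0.11. The call for Itgb2 was lost without any 1 of 5 pools (1.17 to 1.29). Membrane regulators were called in 0 of 5 by limma, with 2 at an unadjusted p below 0.05, and Cd55b was at 0.03. Against the hepatocyte markers, a scale on which the median of all genes moved by -1.77, C2 (-0.62), Itgb2 (-0.47), Cfhr3 (-1.3), Colec11 (-1.36), Itgax (-1.7) and Cd55b (-1.78) had the opposite sign. In the fetal minus postnatal comparison 17 of the 35 were lower and 0 higher, with a median of -1.37, beside 5.01% lower and 4.5% higher over all genes. Relative to the hepatocyte markers 13 were lower and 5 higher, where 1.96% and 57.3% of all genes were.

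The genes most like the mean standardised profile of the 8, by Pearson r over the 14 pools, were Cyp2c23 (0.984), Ugt2b5 (0.984), Haao (0.979), C8g (0.978) and B2m (0.974). For single genes the closest were Slco1b2 for Mbl2 (0.995), F13b for Cfi (0.993), Upb1 for Mbl1 (0.991), Abhd3 for C8a (0.978), Orm3 for C6 (0.977), F5 for Masp1 (0.977), Nudt7 for C9 (0.965) and Crp for C8b (0.951). Orm3 read 4.45 to 4.66 before the adult stage and 5.33 in the adult, under the array medians throughout, so its r with C6 leans on the adult pool. Slco1b2 is a hepatic uptake carrier, F5 and F13b are clotting factors, and Crp is a pentraxin of the acute phase. Among the 8 genes r ran from 0.28 for Cfi and C6 to 0.95 for Masp1 and Mbl1. These correlations describe pools that share a time order.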

How the data were processed

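RNA from pooled C57/B6 livers was hybridised to 25 Affymetrix arrays, 14 stages in all. The authors deposited 1 table of RMA intensity values on a linear scale, per the submitters' processing notes and the values; no software version or background step is given in the labels. Log2 of these values was taken, which differs from the log2 scale first assumed. Probe sets were named through GEO's platform annotation, with 34958 of 45101 having 1 symbol, 932 several and 9211 none, and symbols checked against RefSeq (GRCm38.p6). Each gene was represented by its set with the highest mean.

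Repeats were averaged per stage. limma 3.58.1 in R 4.3.3 was fitted over all 18194 genes: fetal minus postnatal pools, the slope over fetal days times the span, the slope on log2(day + 1) after birth, and, on 25 arrays, each stage against the one before and against E11.5. A call needs a Benjamini-Hochberg adjusted p below 0.05 and at least 1 log2 unit. The p-values on arrays measure technical spread, those on pools the spread between stages of a class. The number of arrays limits the precision. The code was tested on simulated data.

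Replicate numbers were not used in the main fits, although same-numbered arrays tended to deviate alike across stages. Values are given for the 8 measured members and counts for the 35 measured of 45 other complement genes listed. Named genes are the members, up to 3 other genes per role (the called ones with the largest fetal change, then the smallest), and the closest profiles by r. Members and lists were chosen with earlier results of these data known. Motifs, the promoters shown and the comparisons without single-array stages were chosen after seeing the data. Promoter sequences matched 7 of 9 members. Alternatives tried were scaling, probe set choice, a filter on dim genes, a robust variance, a replicate block, the stage boundaries and leaving out each pool or array.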

Additional observations from a re-analysis of the deposited data

Results flagged for a closer look

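In the 6 postnatal pools, the adult level of C6, 9.87, stood apart from the next highest, 7.14 at Day14, with a gap of 0.772 of the group's range, past Dixon's critical value for 6 samples. The Day0 level of Mbl2, 9.4, stood apart at the low end from the next, 11.27 at Day3, with a gap of 0.626 of the range, only just past that value. In all, 16 groups were examined in this way, the fetal and the postnatal pools of each of the 8 genes, and 2 stood apart. Chance alone marks about 1 in 20 groups. The pools are ordered stages, so a level that stands apart can be a stage's own value.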

How the results depend on the processing

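Each stage is 1 pool, and E18.5, Day7 and Day14 have 1 array, so spread between animals is unmeasured and results with those stages lean on 1 array. Scaling each array to the hepatocyte markers changed most; it moved the median of all genes by -1.77 in the fetal course, where 93% of all genes were then called lower, so that genes with a small change turn sign. On it the fetal course called 3 of the 8 genes higher and 1 lower, other complement genes 11 higher and 12 lower, the fetal minus postnatal comparison 4 of 8 genes lower (Masp1 at -0.48 and Cfi at -0.64 not called) and 5 other complement genes higher, the postnatal course 1 of 8 higher (C9, 6.06), steps 1 fall, and onset by E18.5 in 3 of 8. C6 turned sign there, to 0.38 in the fetal minus postnatal difference and to -1.51 in the fetal course. In the fetal course Colec11 (-1.36), C2 (-0.62), Cfhr3 (-1.3), Cd55b (-1.78), Itgb2 (-0.47) and Itgax (-1.7) turned too; Cd55b also turned under quantile normalisation (-0.03) and median centring (-0.04), and Colec11 without E18.5 (-0.1). Cfi after birth turned to -0.14 with replicate 1 arrays alone. Setting arrays to equal housekeeping level moved the median of all genes by 0.5 in the fetal course. The 13 housekeeping genes used include B2m, which went from 10.04 at E11.5 to 12.87 in the adult and is among the profiles closest to the 8 genes.

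Falls between neighbouring stages numbered 1 without _x_at, _s_at and _a_at sets (where C8b has no value) and 1 without stages of 1 array, an alternative added after seeing the data, and 2 to 4 when single arrays were left out, 4 without the first Day0 array. The median midpoint of the rise, 7.55, was 7.39 under quantile normalisation, 7.29 at equal housekeeping level, 6.31 relative to hepatocyte markers, 7.82 with the mean of probe sets, 7.69 without _x_at, _s_at and _a_at sets, 5.31 and 10.05 at 0.25 and 0.75 of the rise, 10.15 on the linear scale, and 6.76 to 8.83 with pools left out. The onset of C6 moved to Day14 under quantile normalisation and to Day3 at equal housekeeping level. With pools left out, postnatal changes ranged from -0.37 to 1.94 for C8b, -0.29 to 4.53 for Mbl2, -0.19 to 2.26 for Masp1, -0.51 to 1.2 for Cfi, 0.12 to 4.55 for C6, 1.71 to 3.17 for C8a and 0.19 to 3.45 for Mbl1, and the fetal change of Colec11 from -0.1 to 1.18. Itgb2 lost its fetal call without any 1 of 5 pools (1.17 to 1.29), and C1qc without E18.5 (2.22).

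Same-numbered arrays tended to deviate alike: over 55 stage pairs the correlation of deviations had a median of 0.4, and 38 were over 0.1, with a range from -0.57 to 0.73. The main fits do not model such a shared replicate effect. With 25 arrays and the replicate number as a block, 7 of 8 genes were lower in fetal arrays, C8b included at -1.87. That fit counts repeats of a pool as separate samples, and the same fit with no block, added after seeing the data, also gave 7 of 8, with C8b at -1.89. The share of all genes called was not counted for either fit, so these counts have no background to be read against. In the step fits all 19 calls were made with and without the block. Named other complement genes were recomputed for the fetal course only. Array fits with replicate 1 alone were not run, having no residual degrees of freedom. The only arrays of E18.5, Day7 and Day14 were left out of array fits all together, but not 1 at a time.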
